A study of Mus musculus with 7 samples.

Results

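Mitochondrial ribosomal protein genes encode the protein parts of the ribosome inside mitochondria. The set described here holds the genes whose symbol in the array files reads Mrpl or Mrps followed by a number and, in some, a letter. It came to 77 genes on 119 probes, of 22976 genes tested and 56605 non-control probes. By symbol, 48 are large subunit genes (Mrpl) and 29 small subunit genes (Mrps). Each gene is given by its brightest kept probe, and all 77 were well above background on all 7 arrays.

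The mitochondrial ribosome translates the few messages of mitochondrial DNA, which encode core subunits of the respiratory chain and of ATP synthase. All of its proteins are nuclear genes, made in the cytosol and imported, while its ribosomal RNA comes from mitochondrial DNA. Some of these proteins descend from bacterial ribosomal proteins and others are particular to mitochondria. The adult heart is packed with mitochondria and draws most of its ATP from the respiratory chain, and inherited defects of several of these proteins cause cardiomyopathy in people.

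Messenger RNA was measured on 7 one-colour Agilent arrays of hearts of adult female mice. The 3 wild type samples are Wild Type_181, Wild Type_183 and Wild Type_189. Double knockout samples, 4 in number, are Mutant_175, Mutant_182, Mutant_187 and Mutant_188. In the knockout, tamoxifen deleted Brg1 (gene Smarca4) through a Cre-ERT driven by the MHC promoter, in animals already null for Brm (gene Smarca2); both are ATPases of SWI/SNF chromatin remodelling complexes. Wild type samples are labelled NTg and knockout samples Tg, all 7 received tamoxifen, and whether the wild type mice carried Brm is not stated in the labels. The cell type is labelled cardiomyocytes, but the source is heart and the RNA kit one for tissue, so other heart cells can contribute. Samples of the design text beyond these 7 were not analysed here, and since the labels do not say that samples are separate animals, p-values cover only the spread among them.

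Values below are log2 of the processed signal minus the 75th percentile of the same array, and fold changes are knockout minus wild type on that log2 scale, from limma on all 7 arrays, with an adjusted p of 0.05 as the threshold of a call. Array values are always given in the order of the sample names above. The signal of the targeted gene Smarca4 was 5.12, 5.03 and 5.09 in wild type and 2.55, 3.36, 3.90 and 3.04 in knockout, a fold change of -1.87 ± 0.29 (SE; n = 3 and 4; limma adjusted p = 0.0021). Smarca2 did not pass the test, so its probe does not show a loss of that transcript in knockout. The exons removed from either gene are not stated in the labels, so these probes check the genotypes only in part. No spot was saturated. The knockout arrays differed more among themselves than the wild type arrays did, with a median SD over the members of 0.18 in knockout and 0.055 in wild type.

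Transcripts of most mitochondrial ribosomal proteins were less abundant in the knockout hearts. Of the 77 genes, 60 were called lower, against 25.8% of all genes tested, and 0 higher, against 16.3%. In 67 genes every knockout array lay below every wild type array (31.7% of all genes), and 76 had a fold change under 0 (58.4%). The median fold change was -0.66, or 63.1% of the wild type level on this scale. Over all genes the median was -0.12, and 72 members lay below that value. In size, 12 genes were below -1, 43 between -1 and -0.5, 21 between -0.5 and 0, and Mrpl17 was above 0. Of the 17 genes not called, 9 had overlapping groups and 8 did not. In bulk heart RNA, fewer cells of a type and less RNA per cell cannot be told apart.

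**Figure D1:**
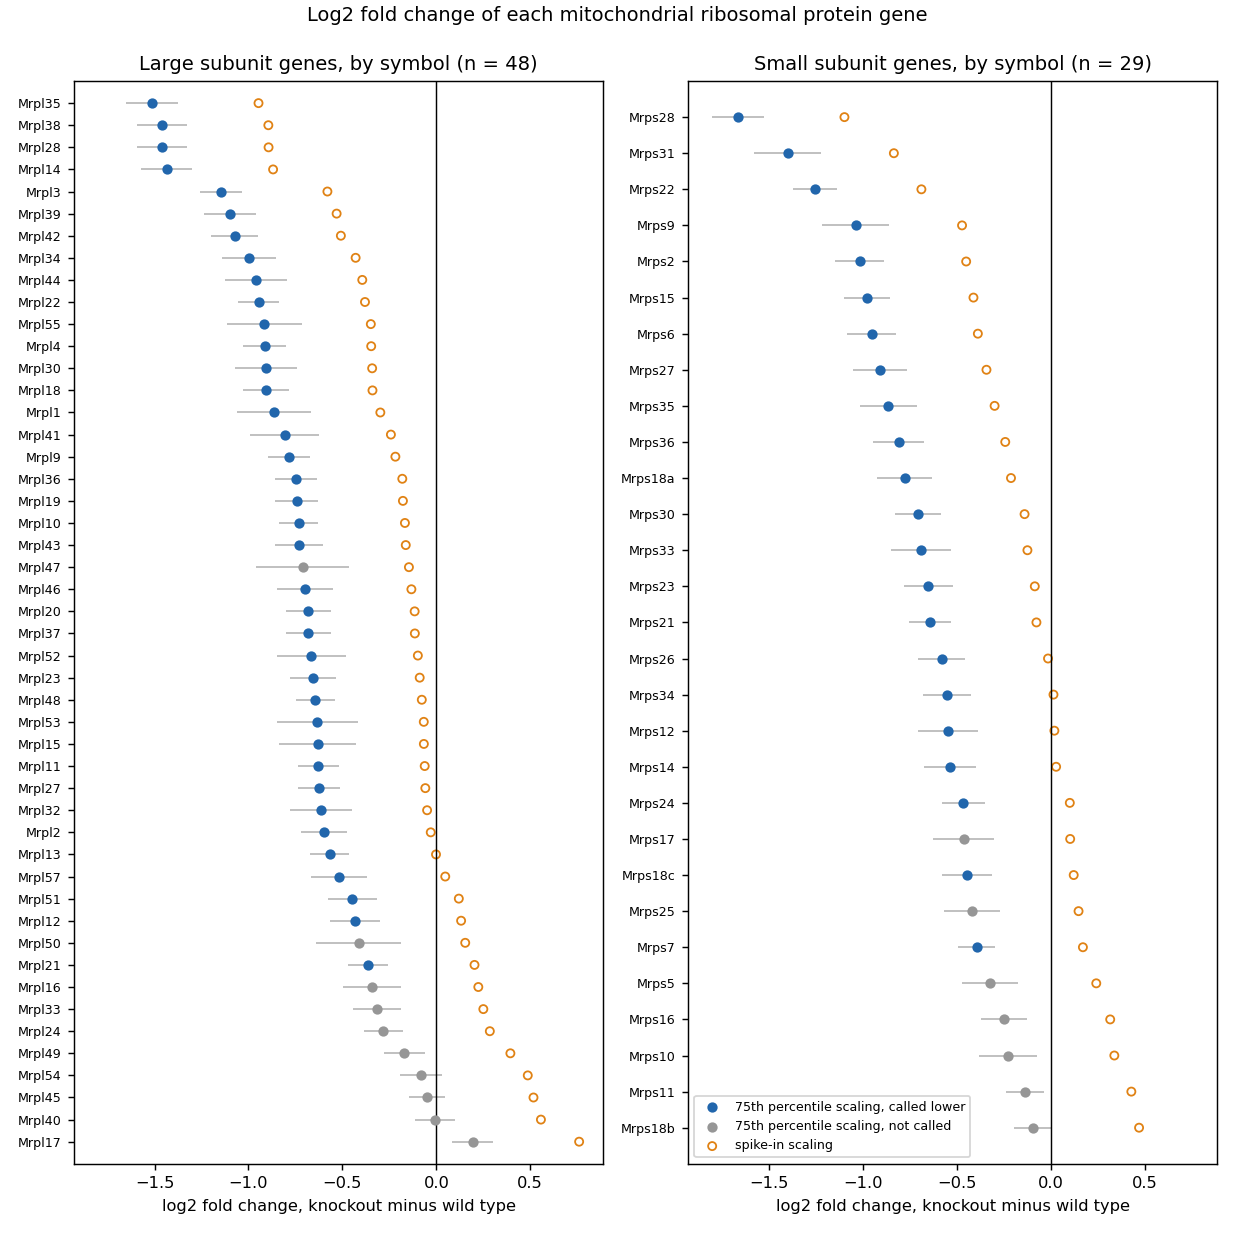
Log2 fold change (knockout minus wild type) of each of the 77 genes, large subunit on the left and small subunit on the right, with filled points and SE bars for 75th percentile scaling (blue called lower, grey not called) and open circles for spike-in scaling. With 75th percentile scaling every gene but Mrpl17 lies left of 0, and the open circles lie 0.57 to the right of the filled points.

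Array by array, the median shift of the members from their wild type mean was -0.56, -0.76, -0.79 and -0.59 in Mutant_175, Mutant_182, Mutant_187 and Mutant_188. Between 74 and 75 of the 77 genes lay below the wild type mean on each knockout array. Mutant_187 was the lowest knockout array in 33 genes, Mutant_182 in 30, Mutant_175 in 11 and Mutant_188 in 3. With 75th percentile scaling, Smarca4 signal was highest in Mutant_187 and Mutant_182, the 2 arrays with the deeper shift of the members. These 2 arrays also had the highest 75th percentile, 1147 and 1126 against 926 in Mutant_175 and 837 in Mutant_188. With spike-in scaling the median shifts were -0.04 in Mutant_175, 0.04 in Mutant_182, -0.11 in Mutant_187 and -0.33 in Mutant_188. The order of the arrays was then different, with Mutant_188 deepest. The part of array scale in the order of the shifts was not tested.

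**Figure D2:**
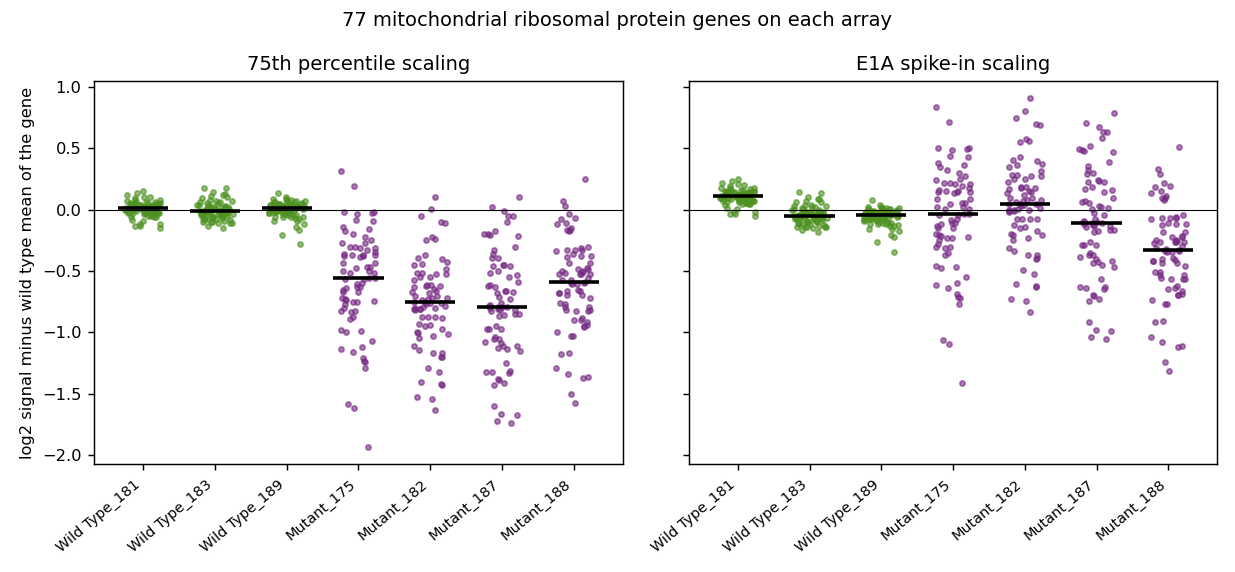
Shift of each of the 77 genes from its wild type mean (log2) on each array, green for wild type and purple for knockout, with 75th percentile scaling on the left and spike-in scaling on the right; black bars are medians. The knockout medians lie between -0.79 and -0.56 on the left and between -0.33 and 0.04 on the right.

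The size of the fall, most of the calls and the sign of 25 members depend on what the arrays are scaled to. The labelling added E1A spike-in RNA, and relative to 7 spike-in probes the 75th percentile itself was 1.48-fold higher in knockout, a log2 difference of 0.57 with no overlap between groups (exact two-sided permutation p = 0.057, where 0.029 is the smallest the design allows). With spike-in scaling, 9 members were called lower, against 7.45% of all genes, and 3 higher, against 37.2%. The median over the members was then -0.10 and over all genes 0.44, and 51 members stayed below 0, against 23.2% of all genes. Spike-in scaling adds the same amount to every fold change, so the gap of 0.54 between these medians holds on either scale by construction. The 9 called lower with both scalings were Mrps28, Mrpl35, Mrpl38, Mrpl28, Mrpl14, Mrps31, Mrps22, Mrpl3 and Mrpl42, and the 3 called higher with spike-in scaling were Mrpl17, Mrpl40 and Mrpl45.

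The large and the small subunit had close medians. With 75th percentile scaling, 38 of the 48 large subunit genes were called lower, with a median of -0.68, and 22 of the 29 small subunit genes, with a median of -0.64. Both had 0 genes called higher. Spike-in scaling gave medians of -0.11 and -0.08, with 6 large subunit genes lower and 3 higher, and 3 small subunit genes lower and 0 higher. The proteins of Mrps18a and Mrps30 sit in the large subunit despite their symbols, and counting them there gave 40 of 50 genes lower with a median of -0.69 and 20 of 27 with a median of -0.58. No test was made of these medians, since genes measured on the same arrays are not replicates.

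Members of bacterial descent had nearly the same median as the others. The 46 members with a bacterial counterpart had a median of -0.65 with 36 called lower, and the 31 particular to mitochondria a median of -0.68 with 24 called lower. Within the small subunit the 16 bacterial counterparts had a median of -0.50 (11 lower) and the 13 others -0.70 (11 lower). Within the large subunit the medians were -0.72 for the 30 counterparts (25 lower) and -0.65 for the 18 others (13 lower).

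The largest fall was that of Mrps28, which encodes a small subunit protein. Its signal was 5.93, 6.03 and 5.84 in wild type and 4.00, 4.39, 4.26 and 4.43 in knockout. The groups lie far apart, with a fold change of -1.66 ± 0.14 (SE; n = 3 and 4; limma adjusted p = 0.00014) that leaves 31.6% of the wild type level. With spike-in scaling its fold change was -1.10 ± 0.20 (SE; limma adjusted p = 0.0028). That scaling adds the same amount to every fold change, so it leaves the rank of Mrps28 as it was. Its probe lies at chr3:8802222-8802281 on mm9, the build of the array files.

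Mrpl35, a large subunit protein with a bacterial counterpart, gave 0.32, 0.13 and 0.26 in wild type and -1.38, -1.19, -1.48 and -1.05 in knockout, from a probe at chr6:71763258-71763317 (mm9). The fold change was -1.51 ± 0.14 (SE; n = 3 and 4; limma adjusted p = 0.00020), and no knockout array came near the lowest wild type array. Mrpl38, a protein of the central protuberance that has no bacterial counterpart, gave 2.48, 2.79 and 2.58 against 1.03, 1.19, 1.36 and 1.04, a fold change of -1.46 ± 0.14. The highest knockout value of Mrpl38, in Mutant_187, was still below its lowest wild type value.

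Mrpl28 gave 3.98, 3.88 and 3.95 in wild type and 2.70, 2.30, 2.34 and 2.57 in knockout, a fold change of -1.46 ± 0.13 (SE). Mrpl14, which lies at the face where the subunits join and binds the assembly factor Malsu1, gave 6.88, 6.97 and 6.67 against 5.55, 5.43, 5.17 and 5.46, a fold change of -1.44 ± 0.14. In neither gene did the groups overlap, and the knockout levels were 36.4% and 37.0% of wild type. Mrps31, a small subunit protein particular to mitochondria, gave 4.65, 4.62 and 4.68 against 3.65, 3.12, 2.91 and 3.31, a fold change of -1.40 ± 0.18. Its knockout values were more scattered (SD 0.31) than its wild type values (SD 0.034), with Mutant_175 closest to wild type.

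**Figure D3:**
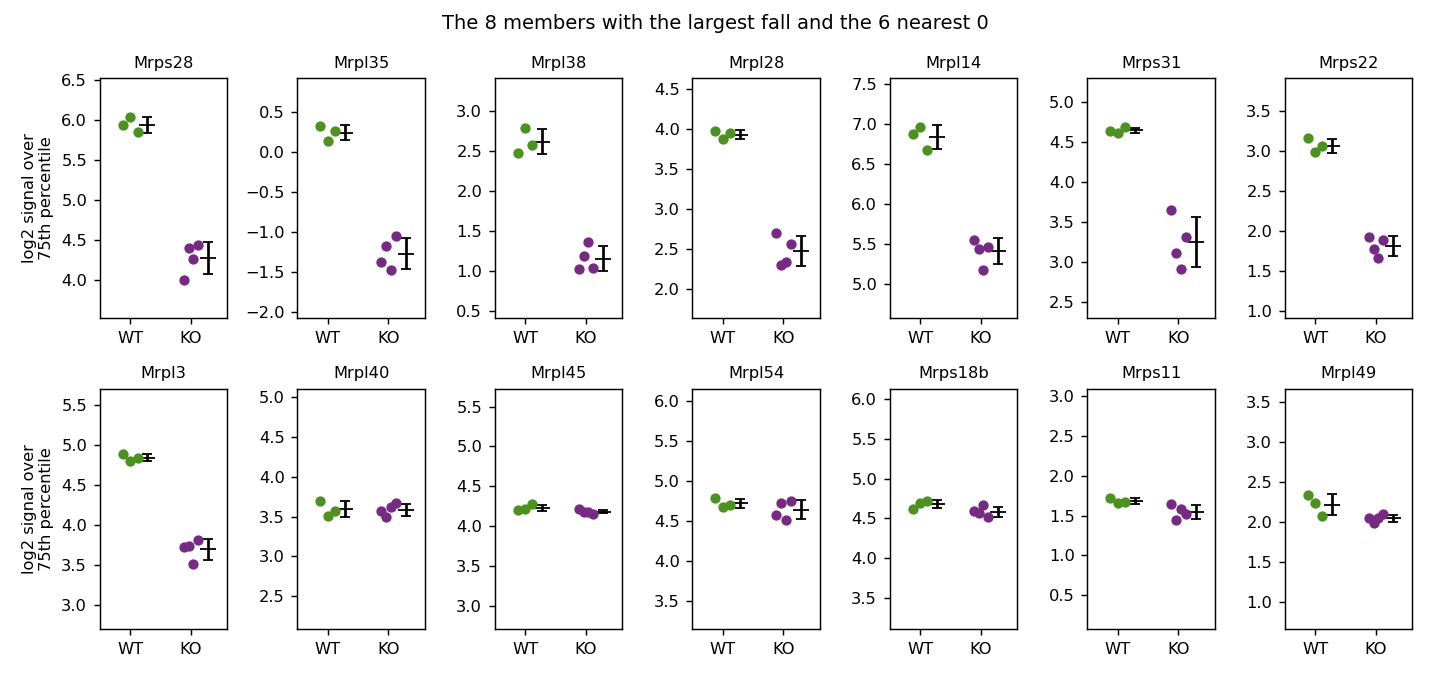
Log2 signal over the array's 75th percentile for the 8 members with the largest fall and the 6 nearest 0, one point per array (green wild type, WT; purple knockout, KO), with mean and SD bars; every panel spans the same number of log2 units. The groups are apart in the first 8 panels, Mrps28 to Mrpl3, and lie close together or overlap in the last 6.

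Genes of inherited cardiomyopathy in people were among the members that fell, with all 4 of those listed called lower and a median of -1.05. Of all 77 members, 77.9% were called lower, with a median of -0.66. Mrps22 gave 3.16, 2.99 and 3.06 in wild type and 1.93, 1.78, 1.66 and 1.89 in knockout, a fold change of -1.25 ± 0.12 (SE; n = 3 and 4; limma adjusted p = 0.00022). Mrpl3, which reaches towards the peptidyl transferase centre, gave 4.89, 4.80 and 4.83 against 3.72, 3.73, 3.51 and 3.81, a fold change of -1.15 ± 0.11 (limma adjusted p = 0.00029). These 2 were also called lower with spike-in scaling, at -0.69 and -0.58. Mrpl44 fell by 0.96 and Mrps14 by 0.54, and with spike-in scaling neither was called, with values of -0.39 and 0.03.

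In the stalk that recruits translation factors and its base, 4 of 5 genes were called lower. This share of 80% is near the 77.9% of all members, beside 25.8% of all genes tested. Mrpl10 fell by 0.73 ± 0.10 (SE), Mrpl11 by 0.63 ± 0.11, Mrpl53 by 0.63 ± 0.21 and Mrpl12, whose protein also binds the mitochondrial RNA polymerase, by 0.43 ± 0.13. Mrpl54 was not called (-0.08, limma adjusted p = 0.60), with 4.78, 4.67 and 4.70 in wild type and 4.57, 4.72, 4.51 and 4.75 in knockout, which overlap. None of the 5 was called with spike-in scaling.

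Around the exit of the nascent chain, 2 of 6 genes were called lower (33.3%, beside 77.9% of all members and 25.8% of all genes). Mrpl22 fell by 0.95 ± 0.11 (SE) and Mrpl23 by 0.65 ± 0.12. Mrpl47 had a fold change of -0.71 but missed the threshold (limma adjusted p = 0.0505), with the widest knockout scatter of any member (SD 0.47) and values of 3.36, 3.07, 2.30 and 3.16 against 3.67, 3.61 and 3.76. Without Mutant_187, its lowest array, Mrpl47 was called lower, at -0.49 (limma adjusted p = 0.020). Mrpl24 (-0.28) was not called either, although all of its knockout arrays lay below all of its wild type arrays.

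The remaining exit genes, Mrpl45 and Mrpl17, were not called with 75th percentile scaling. Mrpl45, which anchors the ribosome at the inner membrane, gave 4.21, 4.22 and 4.28 in wild type and 4.21, 4.19, 4.18 and 4.16 in knockout, a fold change of -0.05 ± 0.095 (limma adjusted p = 0.71). Mrpl17 was the only member above 0, with 2.98, 3.01 and 2.91 in wild type and 3.28, 3.07, 3.07 and 3.22 in knockout. Every knockout array of Mrpl17 lay above every wild type array, as in 19.6% of all genes, but the fold change of 0.19 ± 0.11 did not pass the test (limma adjusted p = 0.19). With spike-in scaling, Mrpl17 was called higher, at 0.76 (limma adjusted p = 0.0079), as was Mrpl45 at 0.52 (limma adjusted p = 0.049).

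Of the genes of the decoding region and the entry of the message, 3 of 4 were called lower. This share of 75% is near the 77.9% of all members, beside 25.8% of all genes. Mrps12, which acts in decoding accuracy, fell by 0.55 ± 0.16 (SE), Mrps24 by 0.46 ± 0.11 and Mrps7 by 0.39 ± 0.098, while Mrps5 was at -0.32 (limma adjusted p = 0.12). With spike-in scaling all 4 lay above 0, between 0.02 and 0.24, and none was called. The related genes Mrps18a, Mrps18b and Mrps18c encode 3 related proteins, of which that of Mrps18c is counted here as the bacterial counterpart. Mrps18a fell by 0.78 ± 0.14 and Mrps18c by 0.44 ± 0.13, whereas Mrps18b was at -0.10 ± 0.10 (limma adjusted p = 0.47), with 4.62, 4.70 and 4.72 in wild type and 4.59, 4.57, 4.67 and 4.52 in knockout.

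Beside Mrpl54, Mrpl45 and Mrps18b, the values nearest 0 were those of Mrpl40, Mrps11 and Mrpl49. Mrpl40, a large subunit protein of the central protuberance, gave 3.70, 3.51 and 3.57 in wild type and 3.56, 3.49, 3.61 and 3.66 in knockout, which overlap (-0.01 ± 0.11 SE). With spike-in scaling, Mrpl40 was called higher, at 0.56 (limma adjusted p = 0.034). Mrps11, a small subunit protein with a bacterial counterpart, gave 1.72, 1.66 and 1.67 against 1.65, 1.44, 1.58 and 1.52 (-0.14). Mrpl49 gave 2.33, 2.24 and 2.07 against 2.04, 1.99, 2.04 and 2.09 (-0.17), with only Mutant_188 inside the wild type range. None of these passed the limma test, which does not show that they were equal in the 2 groups.

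A few members have roles outside the ribosome. Mrps30 and Mrpl41 have been described as regulators of cell death, and they fell by 0.70 and 0.81. Mrps36 carries a ribosomal symbol but its protein is a subunit of the 2-oxoglutarate dehydrogenase complex of the citric acid cycle. It fell by 0.81, from 5.86, 5.87 and 5.92 to 5.21, 5.13, 4.77 and 5.19. With spike-in scaling, Mrps30 was at -0.14, Mrpl41 at -0.24 and Mrps36 at -0.24, and none of them was called. Without Mrps36 the set holds 76 genes, 59 of them lower, with a median of -0.66.

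Probes of the same gene mostly gave the same picture. In 28 genes more than one probe was kept, which gave 35 further probes, of which 25 were called lower and 0 higher, and no gene had probes called in opposite directions. Of the 23 further probes brighter than the array's 75th percentile, 21 were called lower and 21 lay within 0.3 log2 units of the probe used. Of the 12 dimmer ones, 4 were called lower. The second probe of Mrps31 read 0.22, that of Mrps15 0.04, and another probe of each of Mrpl38 and Mrpl9 read 0.06 and 0.40, all dim and not called, while the probes used for these 4 genes were called lower. In the other direction, further probes of Mrps33 and Mrpl48 read -1.55 and -1.96, both called lower, beside -0.69 and -0.64 for the probes used. Mrps5, Mrps17 and Mrpl47 each had a further probe called lower (-0.52, -0.67 and -0.86) beside a probe in use that was not called.

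**Figure D4:**
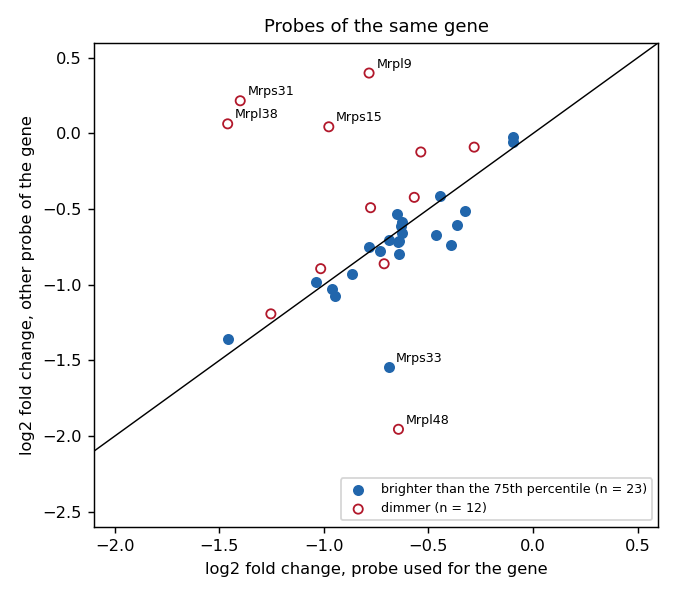
Log2 fold change of each of the 35 further probes of a gene (vertical axis) against that of the probe used for the gene (horizontal axis), blue if brighter than the array's 75th percentile and open red if dimmer, with the line of equal values; names mark probes over 0.6 apart. Of the 23 blue points 21 lie within 0.3 of the line, and the named points far from it are dim except Mrps33.

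Most genes that work with the mitochondrial ribosome were also called lower, where the share over all genes tested was 25.8%. Of 6 ribosomal proteins with other symbols, 4 were called lower, led by Ptcd3 (-1.14), Aurkaip1 (-0.71), Mrpl58 (-0.70), which rescues stalled ribosomes and is named Ict1 in the array files, and Gadd45gip1 (-0.61). With spike-in scaling, Ptcd3 was called lower (-0.57) and Chchd1 higher (0.69), and the median of the 6 was -0.08. Of 26 genes of ribosome assembly and ribosomal RNA modification, 20 were called lower and 1 higher, with a median of -0.64. The named examples are Mettl15 (-1.50), Tfb1m (-1.18), Mrm1 (-1.37) and Eral1 (-0.89), a GTPase that binds small subunit RNA, and the gene called higher was Mpv17l2 (0.44). With spike-in scaling, the 26 assembly genes had a median of -0.08, with 4 lower and 2 higher.

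Among 16 translation factors and mRNA partners, 14 were called lower and 0 higher, with a median of -0.69. Pdf, the deformylase of new mitochondrial proteins, fell by 1.49, the elongation factor Tufm by 1.24, and the release factors Mtrf1l and Mtrf1 by 1.39 and 0.87. Lrpprc (-0.25), which stabilises mitochondrial messages, and Guf1 (0.33) were not called. Of 17 mitochondrial aminoacyl-tRNA synthetases 13 were called lower and 0 higher, with a median of -0.96 that exceeds the members' own in size. Hars2 fell by 1.51, Cars2 by 1.49, Yars2 by 1.16 and Lars2 by 1.07. With spike-in scaling, the translation factors had a median of -0.13 (4 lower, 1 higher) and the synthetases of -0.39 (4 lower, 2 higher).

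The 9 genes of mitochondrial DNA transcription and replication were all called lower, with a median of -0.75. The helicase Twnk fell by 1.23, the RNA polymerase Polrmt by 0.75, the DNA polymerase Polg by 1.01 and the transcription factor Tfb2m by 1.24. With spike-in scaling, Twnk and Tfb2m were called lower and the other 7 were not called, with a median of -0.18. Probes for 9 transcripts of mitochondrial DNA itself had a median of -0.62, with 8 called lower; COX1 was lowest at -0.75 and ND6 at -0.29 was not called. The ND3 probe is placed on chromosome 1 of mm9, and nuclear copies of mitochondrial sequence may be read by such probes. None of these 9 transcripts was called with spike-in scaling, and their median was -0.05.

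The complex I list was taken by symbol alone (Nduf), and the place of each protein was not checked. Many complex I subunits are built around products of the mitochondrial ribosome. This list had 34 of 37 genes called lower and 0 higher, with a median of -0.79. The 82 cytosolic ribosomal protein genes had a median of -0.19, with 17 lower and 1 higher, a share of 20.7% lower that is near the 25.8% of all genes. With spike-in scaling, the complex I median was -0.22 (4 lower, 0 higher) and the cytosolic median 0.38 (1 lower, 19 higher). These lists share their arrays with the members, and no test was made between them.

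**Figure D5:**
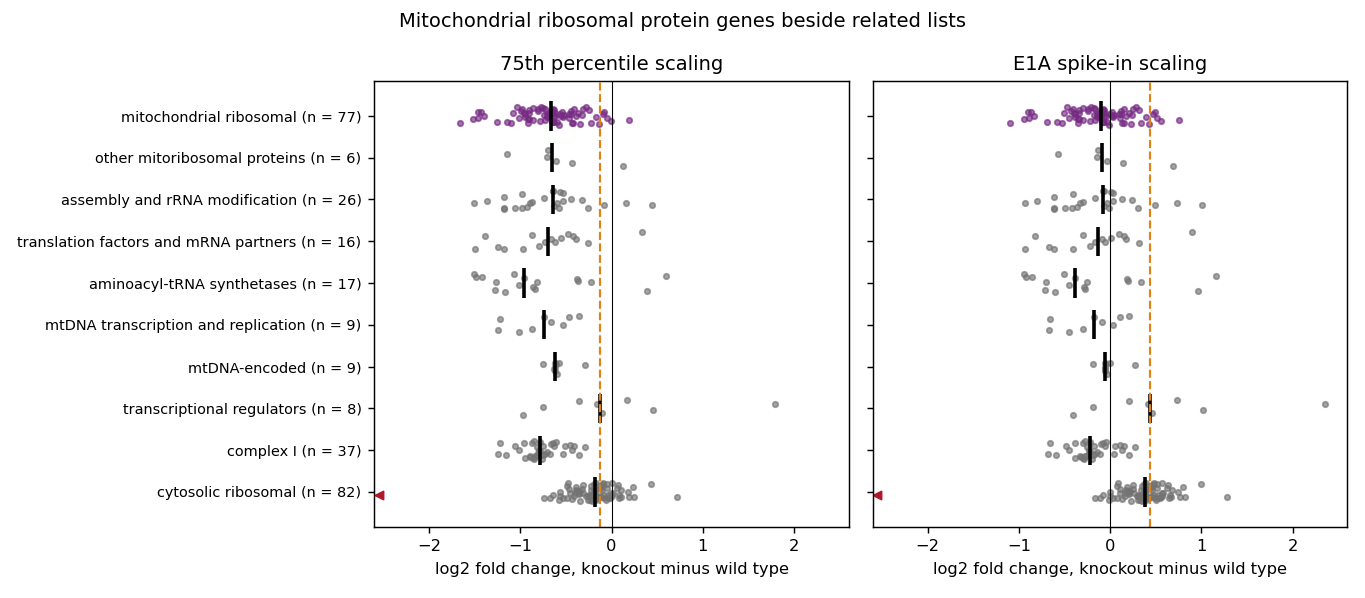
Log2 fold change of each gene in the mitochondrial ribosomal protein set and in related lists, with 75th percentile scaling on the left and spike-in scaling on the right; black bars are list medians, the dashed line is the median of all genes tested, and a red arrow marks a cytosolic gene beyond the axis (Rpl3l, -4.01 and -3.44). The mitochondrial lists, except the regulators, have medians between -0.96 and -0.62 on the left, and the cytosolic median of -0.19 lies near the dashed line.

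The transcriptional regulators known to act on nuclear genes of mitochondria did not move one way. Of 8 tested, Esrra, an orphan nuclear receptor, fell by 0.97 ± 0.10 (SE; limma adjusted p = 0.00036), and Gabpa, the DNA-binding subunit of NRF2, by 0.75 (limma adjusted p = 0.022). Myc rose by 1.79 (limma adjusted p = 0.00017) and Nrf1 by 0.45 (limma adjusted p = 0.019). Ppargc1a (-0.36), Ppargc1b (-0.11), Gabpb1 (0.17) and Yy1 (-0.15) were not called. With spike-in scaling, Esrra was at -0.40 and was not called, and 3 of the 8 were called higher and 0 lower.

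Promoter sequence was examined because such regulators bind near the start sites of many mitochondrial genes. Promoter windows of RefSeq (GRCm38.p6, 250 bases before to 50 after the start) were matched by symbol for 68 of the 77 members, as 74 windows of 32851 in all, 21263 of them of protein-coding genes. The ETS word CCGGAAGT, the core of Gabpa sites, was present on either strand in 16.2% of member windows, 3.89% of all windows and 5.15% of protein-coding ones. The YY1 word AAGATGGCG was in 10.8%, 1.40% and 1.83%, and the NRF1 word, spelled in capitals in the lines on NRF1 below, in 4.05%, 0.971% and 1.33%. For the E-box CACGTG bound by Myc the shares were 9.46%, 7.15% and 7.84%, and for the ERR half-site AAGGTCA 5.41%, 4.72% and 4.08%. The 7 member windows with the E-box came from 5 of the 68 members, because overlapping windows of Mrpl2 hold the same site. Member windows were richer in G and C (median 58.5%) than all windows (52.7%) and protein-coding ones (56.3%), and a match is a description of letters, not of binding.

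The YY1 word is shown because it had the largest ratio of member to other windows. It was found in 8 members, 7 of them called lower, with a median of -0.76. Of the 60 members without it, 45 were called lower, with a median of -0.65. In the lines below, 30 bases are given 5′ to 3′ in the direction of the gene with the word in capitals. The motif lies after the start in 6 of the 8, and the opposite-strand form CGCCATCTT lies before it in Mrpl36 and Mrps11.
Mrpl35: aggcaggctgcAAGATGGCGgcttccatct
Mrpl42: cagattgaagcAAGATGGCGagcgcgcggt
Mrps27: tggtgcgctccAAGATGGCGgctcccatgg
Mrps18a: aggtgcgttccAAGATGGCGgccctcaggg
Mrpl36: acgtgaccttaCGCCATCTTtcttcctggc
Mrpl37: ctgcacgggcaAAGATGGCGgcgtccaggt
Mrps24: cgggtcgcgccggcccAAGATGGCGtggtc
Mrps11: cctacgggcgcCGCCATCTTtctgtcttcc

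Mrpl35, with the second largest fall, opens these lines, and Mrps11, which was not called, closes them. The ETS word was in 12 members, 11 called lower, with a median of -0.65. Of the 56 members without it, 41 were called lower, with a median of -0.67. Sites of the ETS word are shown for the 5 largest falls among carriers and for Mrpl33 (-0.32), the carrier that was not called.
Mrps22: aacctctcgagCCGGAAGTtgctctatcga
Mrpl3: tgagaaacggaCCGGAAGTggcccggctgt
Mrps27: gtggtaggaccACTTCCGGcggaggcgggc
Mrpl18: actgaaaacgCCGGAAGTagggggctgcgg
Mrpl43: caaccccggaaCCGGAAGTcaccggttagt
Mrpl33: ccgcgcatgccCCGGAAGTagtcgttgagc

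All 5 members with the E-box and all 4 with the ERR half-site were called lower, beside 47 of 63 and 48 of 64 members without them. The NRF1 word reads the same on both strands and was in 3 members, at -1.10 in Mrpl39, -0.78 in Mrpl9 and -0.62 in Mrpl32. All 3 were called lower, as were 49 of the 65 members without the NRF1 word.
Mrpl39: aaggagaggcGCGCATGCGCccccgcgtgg
Mrpl9: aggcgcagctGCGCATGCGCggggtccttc
Mrpl32: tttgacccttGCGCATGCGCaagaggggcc

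The 250 bases before the start are given for Mrps22 and Mrpl3, cardiomyopathy genes that carry the ETS word and fell with both scalings, and for Mrpl17, the member above 0, which holds none of the 5 words there in their exact spelling. Near forms of the words were not searched, and close to the start of Mrpl17 a stretch differs from the NRF1 word in its last letter only. They lie at chr9:98601680-98601929 (minus strand), chr9:105053018-105053267 (plus strand) and chr7:105811088-105811337 (minus strand) on GRCm38.p6.
Mrps22: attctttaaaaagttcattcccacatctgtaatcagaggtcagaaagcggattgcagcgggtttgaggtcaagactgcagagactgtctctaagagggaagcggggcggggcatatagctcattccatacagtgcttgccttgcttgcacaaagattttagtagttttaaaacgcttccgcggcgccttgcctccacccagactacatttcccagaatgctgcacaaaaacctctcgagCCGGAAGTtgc
Mrpl3: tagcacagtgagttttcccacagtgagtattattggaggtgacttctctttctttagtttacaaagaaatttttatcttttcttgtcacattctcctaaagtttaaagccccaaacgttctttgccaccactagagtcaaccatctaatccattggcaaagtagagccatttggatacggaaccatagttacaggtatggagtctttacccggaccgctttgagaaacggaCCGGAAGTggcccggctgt
Mrpl17: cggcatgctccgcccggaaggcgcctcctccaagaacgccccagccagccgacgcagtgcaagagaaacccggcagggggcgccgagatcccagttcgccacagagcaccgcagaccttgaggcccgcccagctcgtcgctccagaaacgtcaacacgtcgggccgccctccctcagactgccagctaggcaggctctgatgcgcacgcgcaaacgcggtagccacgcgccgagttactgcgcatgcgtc

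Markers of heart cell types moved beside these genes. Of 8 cardiomyocyte markers, 6 were called lower and 0 higher, with a median of -0.77, and their summed signal, in multiples of the array's 75th percentile, ran from 3877 to 4271 in wild type and from 2014 to 2625 in knockout. Fibroblast markers had 5 of 6 called higher (median 0.94), with sums of 259 to 281 against 401 to 468. Macrophage markers had 3 of 5 higher, smooth muscle and pericyte markers 2 of 5 and lymphocyte markers 2 of the 3 tested, while 1 of 5 endothelial and 0 of 3 erythroid markers were called, the endothelial gene lower. Among smooth muscle and pericyte markers, 1 lay below 0, at -0.64, and was not called. Over all genes tested, 25.8% were called lower and 16.3% higher. With spike-in scaling, the cardiomyocyte median was -0.20, beside -0.10 for the mitochondrial ribosomal protein genes. That scaling gave 4 macrophage markers and 4 smooth muscle and pericyte markers higher. The endothelial median was then 0.29, beside -0.27 with 75th percentile scaling. No marker tested was below background throughout a group, and the part of cell composition in the members' fall was not tested.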

How the data were processed

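Per the file headers, Agilent Feature Extraction 10.7.3.1 read the arrays on a design of build mm9. The deposited column used is the processed signal, a linear intensity already corrected for background, along with quality flags (a score of 0 or 1 per spot). Per the labels' protocols, total RNA was labelled with Cy3 with spike-in RNA added. The authors' deposited value table holds the same signal unscaled and uncentred (99.6% of cells within 0.01 log2; column medians 47.7, 45.9 and 50.8 in wild type and 65.5, 83.3, 80.9 and 61.1 in knockout) and was an alternative.

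Outlier spots (82 to 146 of 59305 per array) were left out, spots of a probe averaged, and log2 signal taken minus the array's 75th percentile. Probes had to be well above background on 3 or more arrays, and each gene took its brightest probe. Members kept the file's name; other genes were named by accession through RefSeq (GRCm38.p6, names only). Genes were fitted with limma 3.58.1 in R 4.3.3 (lmFit, eBayes, no covariates), adjusted by Benjamini-Hochberg over all genes; figures used matplotlib 3.10.9. The 7 arrays limit the precision, and all lie on 1 slide with 1 scan. The fit was tested on simulated data with the same spread in both groups. Knockout arrays were more scattered than wild type arrays here, and that simulation does not cover this difference.

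Members, lists and tests were chosen with earlier results of these data known. Named with array values were the 8 largest falls among called members, the 6 of smallest p and the 6 nearest 0; other members were named by role, and up to 4 of smallest p from each list. Mrpl17, the members called with spike-in scaling, those with unusual probes, and Chchd1, Mpv17l2, Lrpprc, Guf1 and Rpl3l were named after their values were seen, as was the mitochondrial DNA list. Alternatives were other scalings, background correction, filters, probe rules, variance models and leaving arrays out.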

Additional observations from a re-analysis of the deposited data

Results flagged for a closer look

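In 6 of 78 gene profiles examined over the 4 knockout arrays, the highest or lowest array stood apart from the other 3; chance gives about 1 in 20. Mutant_187 was low in Mrpl30 (4.48, which is 0.52 below the nearest other), in Mrpl55 (5.17, the others 5.80 to 5.90) and in Mrpl57 (4.69, the others 5.12 to 5.18). Mutant_182 was low in Mrpl12 (5.66, the others 6.02 to 6.07) and in Mrpl21 (4.52, the others 4.70 to 4.72). Mutant_175 was high in Mrpl43 (4.97, the others 4.58 to 4.64). All 6 genes were called lower with all arrays in the fit.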

How the results depend on the processing

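No paired analysis was possible because samples of the 2 groups share no replicate number. Members called lower numbered 47 to 65 with each array left out in turn, with 0 called higher, medians of -0.71 to -0.64 and a large minus small subunit difference of -0.074 to -0.025 (-0.04 with all arrays); 45 genes were called lower in every such fit and 9 in every setting run. Counting every kept probe gave 85 lower and 0 higher. Under quantile normalization, normexp with quantile normalization, and a percentile over well-measured probes (well above background throughout), 1 member was called higher, with 46, 49 and 51 lower; the first 2 gave medians of -0.47 and -0.48. Spike-in scaling gave 9 lower, 3 higher and a median of -0.10. The subunit difference was -0.10 with probes of a gene averaged and -0.11 by place in the ribosome. Of all genes called, 38.7% were higher with the 75th percentile, 83.3% with spike-in scaling and 49.4% with the percentile over well-measured probes. The median of all genes became 0.44 with spike-in scaling and 0.024 with no filter on dim probes.

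With spike-in scaling, which adds 0.57 to every fold change, 25 of the 77 members turned from below to above 0. Those among the members named by rule were Mrpl40 (0.56), Mrpl45 (0.52), Mrpl54 (0.49), Mrps18b (0.47), Mrps11 (0.43), Mrpl49 (0.39), Mrpl24 (0.28), Mrps5 (0.24), Mrps7 (0.17), Mrpl12 (0.13), Mrps18c (0.12), Mrps24 (0.10), Mrps14 (0.029) and Mrps12 (0.020). Under quantile normalization they turned for Mrpl40 (0.15), Mrpl45 (0.13), Mrpl54 (0.12) and Mrps18b (0.11), with normexp for the same genes (0.16, 0.13, 0.13 and 0.065), and with the percentile over well-measured probes (0.11, 0.065, 0.035 and 0.019). Mrpl40 ran from -0.051 to 0.043 with each array left out, above 0 without Wild Type_181 (0.043) or Mutant_182 (0.022), and Mrpl54 was 0.018 without Mutant_175 and Mutant_187 together. Apart from the scalings, the cause of these changes was not tested. Genes near background on few arrays have fold changes of uncertain size, but every member was well above background.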
